A study of Mus musculus with 48 samples.

Results

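The livers of 6 vehicle mice were compared between formalin-fixed paraffin-embedded (FFPE) and frozen (FROZ) storage, with 1 TempO-Seq library of each kind from every animal. These 12 libraries, of 48 in the series, were chosen by their labels as the animals at 0 mg/kg-d (animals 3 to 8), and the FFPE and FROZ library of an animal formed a pair. The animals were male B6C3F1 mice, a hybrid of inbred strains, 4 weeks old at the start, that drank the vehicle for 6 days, and the other 36 libraries came from mice given dichloroacetic acid (DCA). No gene was altered and no agent other than the vehicle was given in either group. After necropsy a liver was divided, and a portion was flash frozen while the other was fixed in buffered formalin, moved to ethanol, embedded in paraffin and kept for decades without cooling. The FROZ libraries were made from purified RNA of mixed lobes, and the FFPE libraries directly from a lysate of sections of the left lateral and right medial lobes. Storage, lobe and input therefore cannot be told apart in any difference below. Fewer cells of a type and less RNA per cell cannot be told apart either.

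Formalin joins proteins and nucleic acids through crosslinks and adds chemical groups to bases, and RNA in paraffin blocks breaks into short pieces over the years. TempO-Seq is suited to such RNA because a pair of detector oligos needs only a short stretch of intact transcript, on which both anneal side by side before they are ligated, amplified and counted. Probes of the most abundant transcripts were attenuated, by the same scheme in all libraries. In the liver, hepatocytes devote much of their RNA to secreted plasma proteins and to enzymes of drug, lipid and amino acid metabolism.

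There are 11275 rows for FROZ and 6673 rows for FFPE, and 6591 symbols are listed once in both. The FROZ libraries held 7.95 to 9.84 M reads on listed genes (median 9.11 M) and the FFPE libraries 4.53 to 5.82 M reads (median 5.28 M), as recovered from the spacing of the low values. A value of 0 allows up to 3 reads, or 0.305 to 0.377 CPM (read counts scaled to 1000000 per library) in FROZ and 0.516 to 0.662 CPM in FFPE, for counting error only. The 10 highest symbols of a library took 14 to 15.5% of its CPM in FROZ and 22.0 to 25.4% in FFPE. Of the shared symbols, 123 to 778 (median 269) were at 0 in an FFPE library and 0 to 4 (median 1) in a FROZ library, with more in FFPE in 6 of 6 pairs (two-sided exact permutation of signs, p = 0.03125, the lowest possible with 6 pairs). The 778 were in the FFPE library of animal 3, and 508 of them were at 0 in no other FFPE library. No shared symbol was at 0 in all 6 FFPE libraries.

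Some libraries stood apart from the rest. In animal 8 the acute phase transcripts Saa1, Saa2 and Lcn2 were far above those of the other animals, and in the FROZ library of animal 5 the skeletal muscle transcripts Acta1 and Myh8 were high. Without animal 8, 1480 symbols were called higher and 1739 lower in FFPE, and without animal 5, 1473 and 1699. The corresponding counts over all 6 animals were 1539 and 1805.

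The order of transcripts by level was reshuffled in fixed liver. Each level was rescaled over the 6591 shared symbols, the log2(CPM + 1) of FROZ was subtracted from that of FFPE within the animal, and the difference of the median symbol was set to 0. A symbol was called when limma gave a false discovery rate (FDR, Benjamini-Hochberg) under 0.05 and the mean difference was above 1 in size on the log2 scale, which is 2-fold. By this rule 1539 symbols were called higher in FFPE (23.4%) and 1805 lower (27.4%), or 50.7% of those tested in either direction. The middle of the distribution was wide, with a 25th percentile of -1.30 and a 75th percentile of 1.08. Differences above 4-fold were found for 627 of the symbols called higher and 1000 of those called lower, and above 16-fold for 19 and 172. The sign was the same in 6 of 6 animals for 1374 of 1539 and for 1681 of 1805.

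The split between directions depended on the centre. Without centring on the median symbol, which itself was 0.20 to 0.43 higher in FFPE on the log2 scale in the 6 animals, 1979 symbols were called higher and 1422 lower, and on the deposited scale 2044 and 1387. A difference below is thus read against the median symbol. Across the shared symbols, all 6 FFPE libraries lay above all 6 FROZ libraries for 1747 symbols (26.5%) and below them for 1382 (21%), on the rescaled CPM without centring.

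FFPE libraries resembled each other less than FROZ libraries did. Across symbols, Spearman's rho between 2 FROZ libraries was 0.979 to 0.990 (15 pairs of animals), between 2 FFPE libraries 0.735 to 0.861, and between the FROZ and FFPE library of an animal 0.500 to 0.616. Symbols are not independent replicates, and these values describe the libraries. Among 5777 symbols with a mean of at least 10 CPM, the SD between animals of log2(CPM + 1) had a median of 0.183 in FROZ and 0.638 in FFPE, and it was higher in FFPE for 95%. The FFPE minus FROZ difference itself recurred from animal to animal, with a Pearson r across symbols of 0.610 to 0.804 between 2 animals.

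**Figure D1:**
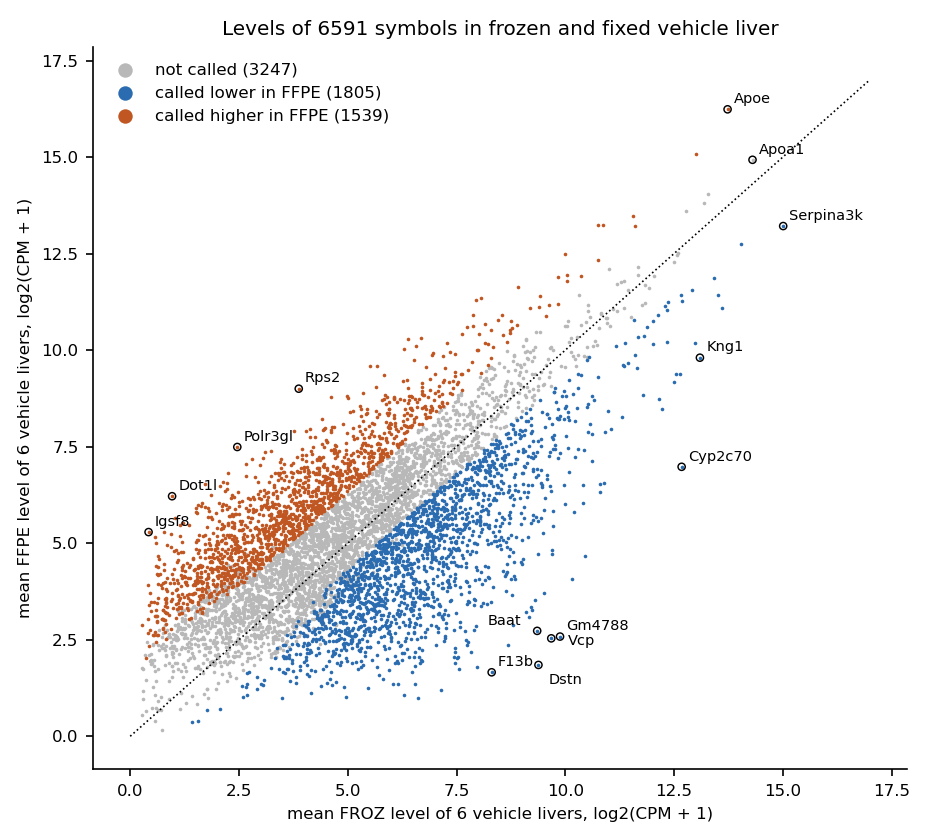
Mean log2(CPM + 1) of 6591 symbols in 6 FFPE libraries (vertical axis) against 6 FROZ libraries (horizontal axis) of the same vehicle livers, with each point a symbol and the dotted line at equal levels. Symbols called higher (1539, orange) and lower (1805, blue) in FFPE spread widely on both sides, with Dstn, F13b, Vcp and Gm4788 farthest below the line and Dot1l, Rps2 and Polr3gl among those farthest above.

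The 10 symbols farthest above FROZ held between 17.7 and 30.4 times as much in FFPE relative to the median symbol, on the log2(CPM + 1) scale, which understates changes of low levels. All 10 were low in FROZ, with medians of 0.337 to 13.3 CPM, and none was at 0 in an FFPE library. Apart from Rps2, they met the filter of a mean of at least 10 CPM through their FFPE levels. Their low FROZ levels thus go with how they were chosen. Dot1l, the histone methyltransferase of transcribed chromatin, held 0.231 to 1.48 CPM in FROZ (median 0.980) and 63.6 to 86.3 CPM in FFPE (median 74.2). Its difference was 4.93 on the log2 scale (SE 0.35), and no FFPE library came near the FROZ range. Rps2, a protein of the small ribosomal subunit, held 10.5 to 20.2 CPM in FROZ (median 13.3) and 375 to 712 CPM in FFPE (median 505), a difference of 4.80 (SE 0.16). It moved from percentile 32.6 of the shared symbols in FROZ to percentile 96.0 in FFPE. Polr3gl, a subunit of RNA polymerase III, followed at 4.70, with 3.30 to 6.43 CPM in FROZ (median 4.46) and 158 to 226 CPM in FFPE (median 171). The others were the membrane protein Igsf8 (4.54), the lipid kinase Dgkq (4.48), the uncharacterised 2410002F23Rik (4.29), Gulo, which makes vitamin C (4.26), the complex I subunit Ndufb11 (4.24), the heparan sulfate sulfotransferase Hs3st3b1 (4.19) and the membrane protein Gpr137 (4.15). The FDR of these 10 was 3.19e-08 to 1.99e-05 (limma).

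The 10 symbols farthest below FROZ were all abundant in frozen liver and close to the detection limit in several fixed libraries. Their FROZ medians were 253 to 1164 CPM and their FFPE medians 1.45 to 25.2 CPM. The differences are 78.6-fold to 233-fold lower relative to the median symbol on the log2(CPM + 1) scale. Of the 10, 6 were at 0 in at least 1 FFPE library. Since levels cannot fall below 0 CPM, only a symbol abundant in FROZ can reach such a difference. The high FROZ levels thus follow from the choice by difference. Dstn, destrin, which takes actin filaments apart, held 593 to 727 CPM in FROZ (median 680) and 0 to 13.1 CPM in FFPE (median 3.32). Its difference was -7.86 (SE 0.56), and it dropped from percentile 96.6 to 12.1. Vcp, the ATPase that extracts ubiquitinated proteins, held 752 to 973 CPM in FROZ (median 782) and 0.180 to 28.2 CPM in FFPE (median 7.33), a difference of -7.47. F13b, the carrier subunit of coagulation factor XIII, held 276 to 356 CPM in FROZ (median 321) and 0.198 to 11.5 CPM in FFPE (median 2.00), a difference of -6.98.

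In each of these genes the FFPE libraries lay far below the FROZ range. Gm4788 was next to Dstn at -7.62. Baat, which joins bile acids to taurine, followed at -6.95 and was at 0 in 2 FFPE libraries. The others were Zfand6 (-6.64), the thiamine transporter Slc19a2 (-6.51), Cyp3a41a (-6.41), the lipid droplet enzyme Hsd17b13 (-6.40) and Angptl4, an inhibitor of lipoprotein lipase (-6.30). The FDR of these 10 was 2.17e-07 to 1.49e-05 (limma). Some of these genes share sequence with others, so that reads could be divided between them. Of the 50-base windows of the longest transcript, 98.6% occurred in another gene for Cyp3a41a, 71.3% for Rps2 and 60.1% for Vcp. Of the genes checked in this way, 14 shared at least 20% of their windows, and their levels are uncertain to that extent. Genes listed in 1 table only, apart from Lcn2, were not checked.

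The sequences of the 4 genes with the largest difference in each direction differ in base composition. The first 100 coding bases of the longest coding transcript (GENCODE vM21, GRCm38) are shown with G and C in capitals. They show the composition of these transcripts and not the probe sites, which were not analysed here.
Dot1l: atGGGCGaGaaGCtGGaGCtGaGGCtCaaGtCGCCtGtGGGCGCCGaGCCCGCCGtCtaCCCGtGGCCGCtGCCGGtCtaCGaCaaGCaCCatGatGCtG
Rps2: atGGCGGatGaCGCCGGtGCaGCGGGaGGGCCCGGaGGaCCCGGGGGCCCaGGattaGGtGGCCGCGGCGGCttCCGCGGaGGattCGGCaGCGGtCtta
Polr3gl: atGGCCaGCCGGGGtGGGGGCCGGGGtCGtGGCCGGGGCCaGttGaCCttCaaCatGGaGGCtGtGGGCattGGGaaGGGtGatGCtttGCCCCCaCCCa
Igsf8: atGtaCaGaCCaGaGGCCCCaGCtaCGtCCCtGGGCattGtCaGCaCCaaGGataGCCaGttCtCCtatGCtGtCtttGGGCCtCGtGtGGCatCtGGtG
Dstn: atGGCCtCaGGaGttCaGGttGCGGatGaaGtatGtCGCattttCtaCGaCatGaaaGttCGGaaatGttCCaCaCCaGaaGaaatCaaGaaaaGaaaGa
Gm4788: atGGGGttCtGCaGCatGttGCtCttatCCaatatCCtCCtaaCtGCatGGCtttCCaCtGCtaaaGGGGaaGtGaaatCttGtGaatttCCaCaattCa
Vcp: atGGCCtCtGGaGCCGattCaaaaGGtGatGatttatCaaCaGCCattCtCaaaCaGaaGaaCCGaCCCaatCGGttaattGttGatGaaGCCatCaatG
F13b: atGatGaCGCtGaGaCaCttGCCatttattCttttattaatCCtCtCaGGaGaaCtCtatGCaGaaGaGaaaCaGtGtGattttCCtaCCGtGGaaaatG
Of these 100 bases, G and C made up 67 in Dot1l, 73 in Rps2, 68 in Polr3gl and 57 in Igsf8, the 4 with more in FFPE. They made up 42 in Dstn, 43 in Gm4788, 43 in Vcp and 39 in F13b. Over the whole coding sequence the GC content was 58.7, 58.4, 55.7 and 62.9% in the former group, in the same order, and 44.4, 40.8, 48.6 and 43.7% in the latter. In GRCm38, Dot1l lies on the plus strand of chromosome 10 (80755206 to 80795461), Rps2 on the plus strand of chromosome 17 (24718116 to 24721929), Polr3gl on the minus strand of chromosome 3 (96577872 to 96594181) and Igsf8 on the plus strand of chromosome 1 (172261641 to 172319841). Dstn lies on the plus strand of chromosome 2 (143915320 to 143943324), Gm4788 on the minus strand of chromosome 1 (139697623 to 139781243), Vcp on the minus strand of chromosome 4 (42979963 to 43000507) and F13b on the plus strand of chromosome 1 (139501702 to 139523752). All 4 genes on either side code for proteins, and the 100 bases are exonic by construction.

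GC content separated the directions over the whole table. The GC content of the longest coding transcript was known for 6455 of the 6591 symbols. Its median was 54.2% for symbols called higher, 46.6% for symbols called lower and 50.6% for all. In the quintile of symbols with the lowest GC content (32.9 to 44.8%), 8.21% were called higher and 52.9% lower, with a median difference of -1.25. In the quintile with the highest GC content (55.9 to 68.4%), 43.0% were called higher and 7.82% lower, with a median difference of 0.99. The medians of the 3 quintiles between them were -0.55, -0.05 and 0.39. The order held in each animal, where the lowest quintile had a median of -1.23 to -1.08 and the highest 0.98 to 1.18.

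Spearman's rho between GC content and the mean difference was 0.445 across symbols, and 0.350 to 0.418 in single animals. With the GC content of the coding sequence alone it was 0.497, and at the third codon position 0.401. Since symbols with a low GC content had a higher level in FROZ (median 57.7 CPM in the lowest quintile and 13.9 CPM in the highest), rho was also taken within bands of FROZ level. It was 0.107 under 1 CPM (135 symbols), 0.264 from 1 to 10 CPM, 0.390 from 10 to 100 CPM, 0.444 from 100 to 1000 CPM and 0.497 above (145 symbols). Transcript length did not order the differences in this way. The rho with length was -0.01, and the medians of its quintiles ran from -0.10 to -0.02.

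**Figure D2:**
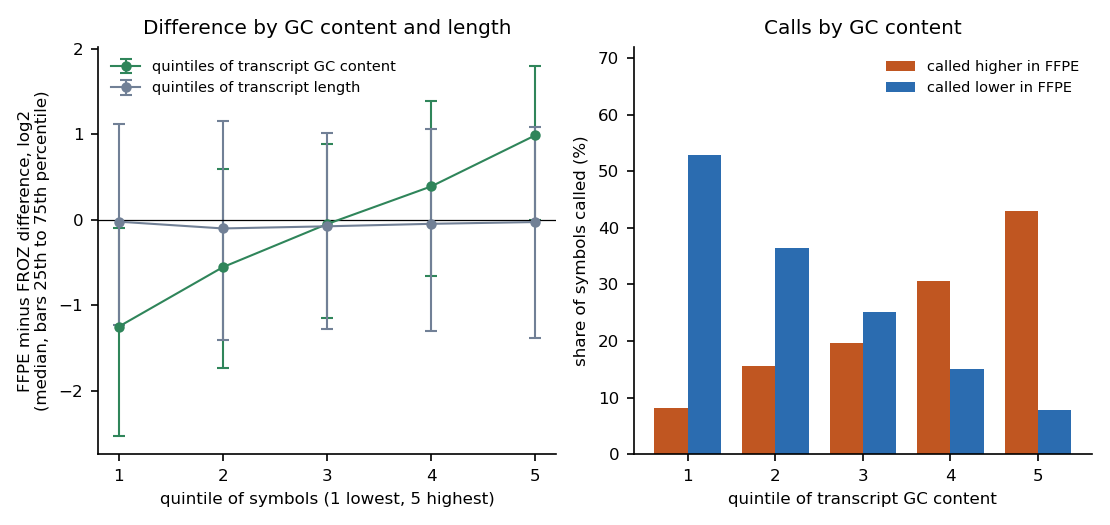
FFPE minus FROZ difference (log2, 0 is the median symbol) by quintile of transcript GC content and by quintile of transcript length in 6 vehicle livers, with points at the median and bars from the 25th to the 75th percentile, and on the right the share of symbols called higher and lower in each quintile of GC content. The medians climb with GC content from -1.25 to 0.99 and stay between -0.10 and -0.02 across length, and calls pass from 52.9% lower to 43.0% higher.

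The level in FROZ also went with the direction of a call. Of 1538 symbols at 1 to 10 CPM in FROZ, 42.5% were called higher in FFPE and 1.24% lower, whereas of 1364 symbols at 100 to 1000 CPM, 7.18% were called higher and 58.7% lower. The FROZ level is a term of the difference, and a symbol low in FROZ is tested only if it is listed in FFPE, so these shares are a description. The median FROZ level was 10.8 CPM for symbols called higher, 97.0 CPM for symbols called lower and 29.5 CPM for all.

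Hepatocyte markers were abundant in both preservations. They were listed in FFPE for 16 of the 17 that FROZ lists, and of these 6 were called higher (37.5%) and 2 lower (12.5%). Of all symbols, 23.4% were called higher and 27.4% lower, and the counts of each list below are read beside these shares. The summed level of the hepatocyte markers was 1.15 to 1.48 times as high in FFPE in the 6 animals. Alb, serum albumin, held 2545 to 3926 CPM in FROZ (median 3082) and 7588 to 11939 CPM in FFPE (median 9384), a difference of 1.29. The asialoglycoprotein receptor Asgr1 was at 107 to 179 CPM (median 150) and 842 to 1075 CPM (median 894), a difference of 2.31 (SE 0.11). Hnf4a, the transcription factor that maintains hepatocyte identity, was at 312 to 491 CPM (median 380) and 911 to 2215 CPM (median 1308), a difference of 1.49. The 2 called lower were both cytochromes, Cyp3a11 at -3.81 and Cyp2e1 at -1.88.

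Of the 10 symbols with the most reads in each preservation, 5 were the same. These places order reads of ligated probes after attenuation, not transcripts per length. Apoe, the apolipoprotein of remnant particles, held place 4 in FROZ with 12241 to 15508 CPM (median 13545) and place 1 in FFPE with 69457 to 88387 CPM (median 74366), a difference of 2.18 (SE 0.08, FDR 5.69e-08 by limma). By its mean it had more reads than any other symbol in FFPE. Serpina3k, a serine protease inhibitor, held place 1 in FROZ with 26856 to 38621 CPM (median 34023) and place 8 in FFPE with 5444 to 14061 CPM (median 9849), a difference of -2.12. Kng1, the precursor of bradykinin, held place 10 in FROZ with 7984 to 9300 CPM (median 8945) and place 146 in FFPE with 696 to 1256 CPM (median 831), a difference of -3.62. The fibrinogen chain Fga moved from place 5 to 50 (-2.82). Apoa1, the main protein of high-density lipoprotein, held places 2 and 3 and was not called (0.30, FDR 0.0107).

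Secreted plasma proteins were mostly lower in FFPE, although several apolipoproteins stood at the top of the fixed libraries. Of 95 members tested, 13 were called higher (13.7%) and 50 lower (52.6%), against 23.4 and 27.4% of all symbols. The list is abundant, with a median of 667 CPM in FROZ. Of all symbols at 100 to 1000 CPM in FROZ, 7.18% were called higher and 58.7% lower. The share called lower is thus no larger than that of symbols at this level. The median difference of the list was -1.33 to -0.91 in the 6 animals (median -1.07). Beside F13b, the complement proteins C1ra (-5.53) and C8b (-4.59) were lowest. C8b held a median of 1762 CPM in FROZ and 113 CPM in FFPE. C1ra shares 50.8% of its windows with other genes. The highest were the lectin pathway protease Masp2 (2.72), coagulation factor F11 (2.6) and the retinol carrier Rbp4 (2.43, 109 and 729 CPM). The summed level of the list was 0.912 to 1.11 times that in FROZ, since Apoe and others offset the members that were lower.

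Transcripts of the secretory machinery were also mostly lower. Of 43 genes of translocation and folding in the endoplasmic reticulum (ER), 5 were called higher (11.6%) and 23 lower (53.5%). The median difference of this list was -1.25 to -0.89 in the animals. Its median FROZ level was 120 CPM, and 58.7% of all symbols at 100 to 1000 CPM were called lower. Sec61g, part of the translocation channel, was at -4.72, the disulfide isomerase Pdia6 at -4.32 (SE 0.16, 568 and 33.3 CPM) and the oligosaccharyltransferase subunit Rpn2 at -4.17. The signal peptidase subunit Spcs2 was called higher at 1.77. Cytosolic and other heat shock proteins and chaperones had 9 of 37 called higher (24.3%) and 16 lower (43.2%), with a median of -0.47. They ran from the chaperonin subunit Cct4 at -3.97 to Hspb6 at 2.84.

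Enzymes of drug metabolism had the lowest median of the lists. Of 34 cytochrome P450 genes of families 1 to 4, 6 were called higher and 19 lower, with a median of -1.97 to -0.91 in the 6 animals. Their summed level was 0.166 to 0.294 times that in FROZ. Cyp2c70, which makes muricholic acids, held 4048 to 9367 CPM in FROZ (median 6802) and 59.3 to 250 CPM in FFPE (median 151), a difference of -6.02 (SE 0.25). Cyp2c29 was at 2790 to 6529 CPM (median 4944) and 126 to 509 CPM (median 418), a difference of -4.07. The FFPE and FROZ ranges were far apart for both.

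Cyp1a2, a P450 of the same pericentral hepatocytes, went the other way, with 66.5 to 115 CPM in FROZ (median 94.2) and 167 to 347 CPM in FFPE (median 324), a difference of 1.29. Cyp4f17 (3.53) and Cyp2d9 (2.21) were also called higher. Among 39 conjugation enzymes of phase II, 7 were called higher and 20 lower, with a median of -1.44 to -0.93. The sulfotransferase Sult2a8 was at -4.71 (1237 and 47.6 CPM), the glucuronosyltransferase Ugt2a3 at -4.78 and the glutathione transferase Gstt2 at 2.77.

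Complexes that every cell uses held members called in either direction, as all symbols did. Of 58 cytosolic ribosomal proteins, 18 were called higher (31.0%) and 14 lower (24.1%), near the 23.4 and 27.4% of all symbols. Their median was 0.20 (animals -0.01 to 0.50), and their summed level was 2.03 to 2.57 times that in FROZ. Rpl35, of the large subunit, was at 125 to 395 CPM in FROZ (median 242) and 2158 to 2867 CPM in FFPE (median 2538), a difference of 3.03. Ribosomal proteins have many processed copies, and 40.1% of the windows of Rpl35 occurred in another gene.

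The proteasome also held members called in either direction, with a lower centre. Of 26 subunits, 4 were called higher and 15 lower, with a median of -1.35 to -0.80 in the animals. Psmd6, of the regulatory particle, held 546 to 646 CPM in FROZ (median 587) and 0.198 to 20.6 CPM in FFPE (median 14.8), a difference of -6.18. Psmb6, a catalytic subunit, held 40.4 to 57.0 CPM in FROZ (median 49.7) and 679 to 998 CPM in FFPE (median 719), a difference of 3.60 (SE 0.12). The order of these 2 subunits of a single complex was thus reversed between the preservations. Of 88 genes of the ubiquitin system, 17 were called higher (19.3%) and 30 lower (34.1%), from Ube2v2 (-5.72) to Fbxl6 (3.82).

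Other machinery of gene expression lay mostly below the median symbol. Ribosome biogenesis factors had 3 of 28 called higher and 14 lower (median -0.99), with Nop10 at -5.06. The counts were 9 and 22 of 52 for spliceosome and hnRNP proteins (median -0.40), 9 and 17 of 46 for translation factors (-0.45) and 4 and 11 of 30 for aminoacyl-tRNA synthetases (-0.68). Each of these lists was below 0, the median symbol, in 6 of 6 animals. Without centring the median was -0.71 for ribosome biogenesis factors and -0.39 for aminoacyl-tRNA synthetases. It was only -0.10 for spliceosome and hnRNP proteins and -0.09 for translation factors, so most of their difference rests on the centre. Single members again went far in either direction, such as the splicing factors Prpf39 (-4.39) and Sf3b2 (2.95) and the subunits Eif3l (-5.42) and Eif3f (3.56) of 1 initiation factor.

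Mitochondrial lists differed from each other. Mitochondrial ribosomal proteins had 9 of 51 called higher and 21 lower (median -0.55, animals -0.75 to 0.01). Subunits of the respiratory chain and ATP synthase that the nucleus encodes had 16 of 63 called higher (25.4%) and 19 lower (30.2%). These shares were near the 23.4 and 27.4% of all symbols. The median of this list, -0.16, became positive without centring. Ndufa8 (-5.20) and Ndufb11 (4.24) are both subunits of complex I. None of the transcripts that mitochondrial DNA encodes is listed in either table. Mitochondrial carriers (Slc25) had 7 of 27 called higher (25.9%) and 6 lower (22.2%), also near the shares of all symbols. Their median of -0.05 also became positive without centring.

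Metabolic pathways of the hepatocyte held genes with opposite differences. Enzymes of the urea cycle and amino acid breakdown were called higher for 17 and lower for 17 of 63, or 27.0% each. The shares of all symbols were 23.4 and 27.4%. The median of this list, -0.16, turned positive without centring. Otc, the mitochondrial ornithine transcarbamylase of the urea cycle, held 609 to 760 CPM in FROZ (median 699) and 19.5 to 86.9 CPM in FFPE (median 53.9), a difference of -4.11. Uroc1, of histidine breakdown, held 37.4 to 53.7 CPM (median 45.9) and 652 to 924 CPM (median 748), a difference of 3.75 (SE 0.12). The FFPE and FROZ ranges of neither gene overlapped.

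Synthesis of cholesterol and fatty acids had 6 of 35 genes called higher and 17 lower (median -0.66), and its summed level was 0.399 to 0.562 times that in FROZ. The sterol enzymes Idi1 (-3.88) and Sc5d (-3.32, 1148 and 143 CPM) were lowest, and Srebf1, the regulator of fatty acid synthesis, was highest (2.36). Fatty acid oxidation had 6 of 39 called higher and 14 lower (median -0.62), with Crot at -4.74 and Acaa1b at 3.78. Glucose and glycogen metabolism had 2 of 33 called higher and 9 lower, with a median of -0.27 that turned positive without centring. Pck1, the rate-limiting enzyme of gluconeogenesis, was called higher (1.74, 933 and 3931 CPM), and the glycogen branching enzyme Gbe1 was called lower (-4.23).

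Lysosomal genes had 5 of 46 called higher and 17 lower (median -0.44), with the membrane protein Lamp2 at -6.12 (732 and 18.8 CPM). Peroxins, which build peroxisomes, had 4 of 13 called higher and 2 lower. Their median was -0.70 to 0.48 in the animals (median 0.13), and the median of their mean differences was -0.16, so that no direction can be given. Solute carriers other than Slc25 had 17 of 95 called higher and 31 lower, with a median of -0.19 that turned positive without centring. Cytoskeletal genes had 10 of 43 called higher (23.3%) and 11 lower (25.6%), near the 23.4 and 27.4% of all symbols. Their median was 0.14 (animals -0.03 to 0.70).

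Among lists with at least 10 tested members, immediate early and labile response genes had the highest median. Of the 31 listed in FROZ, 11 are not listed in FFPE (35.5%, against 41.5% of all symbols). Of 20 immediate early and labile response genes, 9 were called higher (45.0%) and 3 lower (15.0%). Their median was 0.49 to 1.42 in the 6 animals, and their summed level was 2.09 to 3.05 times that in FROZ. Klf9, a transcription factor that responds to glucocorticoids, held 13 to 19.4 CPM in FROZ (median 17.2) and 50.8 to 178 CPM in FFPE (median 131), a difference of 2.48. The small GTPase Rhob was at 2.44. The immediate early factor Jun was not called (-1.18, FDR 0.156).

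Nuclear receptors had 8 of 25 called higher and 5 lower (median 0.36 to 0.70 in the animals). Nr2f6 was at 45.0 to 64.1 CPM in FROZ (median 57.3) and 333 to 521 CPM in FFPE (median 446), a difference of 2.57. Ppara, the receptor that drives fatty acid oxidation, was at 218 to 468 CPM (median 352) and 77.0 to 200 CPM (median 161), a difference of -1.57. Zinc finger genes (Zfp) had 27 of 89 called higher and 15 lower, from Zfp787 (3.83) to Zfp281 (-4.67). The median over members was 0.16 to 0.54 in the animals (median 0.45), whereas the median of the members' mean differences was 0.12, and -0.13 for the 68 members with a mean of at least 10 CPM. A further 177 of the 266 in FROZ were not listed in FFPE. Of 9 circadian clock genes tested, 1 was called higher and 4 lower, with Nfil3 at -4.57 and Clock at -3.42.

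**Figure D3:**
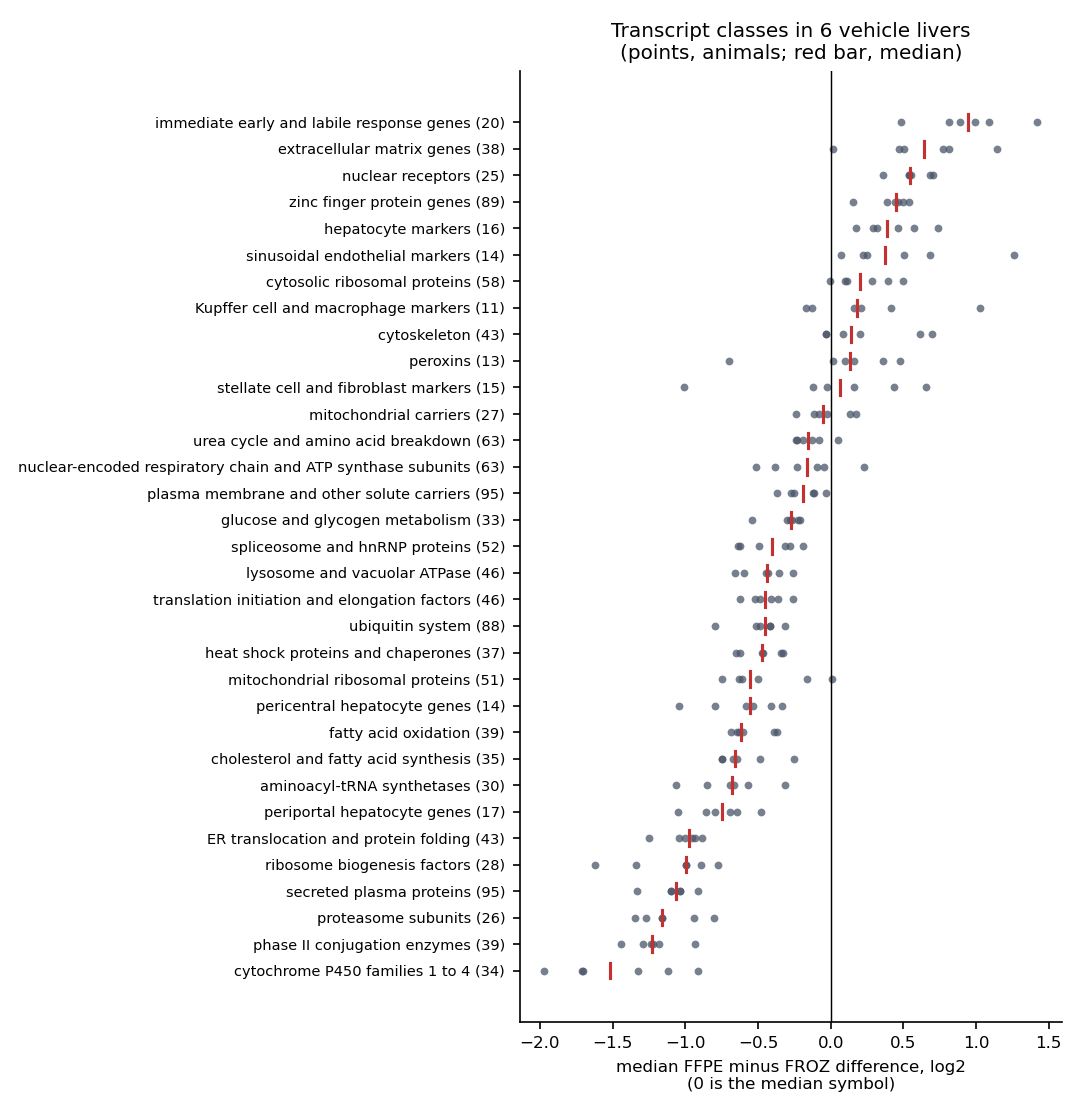
Median FFPE minus FROZ difference (log2, 0 is the median symbol) of 33 lists with at least 10 tested members, with points for the 6 vehicle animals, a red bar at their median and the number of members in brackets. Cytochrome P450 genes lie lowest (median -1.52) and immediate early and labile response genes highest (0.94). The 5 lists near 0 named respiratory chain, urea cycle, glucose, Slc25 and other solute carriers lie above 0 when differences are not centred.

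Genes of the 2 ends of the liver lobule, which is not the sampled lobe, were also compared. Pericentral genes had 2 of 14 called higher and 7 lower, and periportal genes 3 of 17 and 8. The median difference was -1.05 to -0.33 for the former and -1.05 to -0.48 for the latter. The summed level of pericentral genes was 13559 to 21095 CPM in FROZ (median 18740) and 3590 to 7087 CPM in FFPE (median 6131). That of periportal genes was 9975 to 13547 CPM (median 11888) and 15134 to 24263 CPM (median 18896). The sums moved apart although the medians of the members did not, since a few abundant genes such as Cyp2e1 and Cyp2c29 make up most of the pericentral sum. The pericentral genes called higher in FFPE were Gulo and Cyp1a2. The part of lobe in these values was not tested.

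Markers of the other liver cells were tested where both tables list them. Of all symbols listed in FROZ, 41.5% are not listed in FFPE, and the share was 38.9% for markers of Kupffer cells and macrophages and 33.3% for those of sinusoidal endothelium. Of 18 markers of Kupffer cells and macrophages listed in FROZ, 11 were tested, 1 was called higher (Laptm5, 2.10) and 1 lower (Cybb, -2.23). The call of Laptm5 was lost at a pseudocount of 10 CPM (0.89), and that of Cybb without animal 6 (-1.62), without animal 8 (-1.66) and without centring (-1.90). Clec4f and Vsig4, which define Kupffer cells, are listed in FROZ only. Of 21 markers of sinusoidal endothelium, 14 were tested, with 4 called higher (28.6%, against 23.4% of all symbols) and 1 lower (7.14%, against 27.4%). Their median difference was 0.07 to 1.26 in the animals (median 0.38). The median of the members' mean differences was 0.10 for the 13 with a mean of at least 10 CPM. Their summed level was 2.20 to 3.21 times that in FROZ, to which Clec4g contributed much. Clec4g, a lectin of these cells, held 36.7 to 46.1 CPM in FROZ (median 42.3) and 264 to 486 CPM in FFPE (median 314), a difference of 2.61. Lyve1 and Pecam1, of the same cells, are listed in FROZ only and were not tested.

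Stellate cell and fibroblast markers had 3 of 15 called higher and 4 lower, with Reln at 1.73 and Lum at -1.31 (-0.98 and not called without centring). Extracellular matrix genes had 11 of 38 called higher (28.9%) and 6 lower (15.8%), with a median of 0.64. Of 81 listed in FROZ, 43 are not listed in FFPE (53.1%, against 41.5% of all symbols). The summed level of those tested was 0.698 to 1.03 times that in FROZ, so no direction can be given for the list. Sparc was at 62.2 to 100 CPM in FROZ (median 81.9) and 510 to 715 CPM in FFPE (median 613), a difference of 2.55. Fn1, fibronectin, was at -1.62 (3521 and 1506 CPM). Few members of the remaining cell lists were tested. These were 5 of 8 cholangiocyte markers (1 higher, 2 lower), 3 of 14 lymphocyte markers (0 called by limma), 7 of 9 erythroid markers (1 higher) and 5 of 14 markers of smooth muscle, mesothelium, fat and pancreas (1 higher). None of 4 neutrophil markers and of 2 histone genes listed in FROZ is listed in FFPE.

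Of the 33 lists with at least 10 tested members, 22 had a median below 0 and 11 above, and 18 were below 0 in 6 of 6 animals. These counts are relative to the median symbol, and without centring 17 lists had a median below 0. The lists differ in composition and in FROZ level, which also went with the direction of a call. Across the 33 lists, Spearman's rho between the median GC content of the members (47.2 to 55.1%) and the median difference was 0.59, as a description of lists that share members and libraries.

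Transcripts absent from the FFPE table were mostly low in FROZ. Of 11271 symbols listed once in FROZ, 4680 are not listed in FFPE (41.5%, Wilson interval of 95% 40.6 to 42.4). The share was 15.1% (864 of 5724) among symbols whose mean in FROZ vehicle livers was 10 CPM or more, 3.41% (52 of 1524) at 100 CPM or more, and 0 of 138 at 1000 CPM or more, where the interval reaches 2.71%. The listing rests on all 24 libraries of a preservation, DCA animals included, because the authors filtered on their geometric mean. Over all levels the share was 51.6% in the quintile of symbols with the lowest GC content and 35.5% in the quintile with the highest. Within a band of FROZ level it also fell with GC content. From 10 to 30 CPM it was 50.4 and 7.83% in these quintiles, and from 30 to 100 CPM it was 22.4 and 2.31%. At 10 CPM or more, the median GC content was 45.2% for symbols not listed and 49.5% for those listed.

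**Figure D4:**
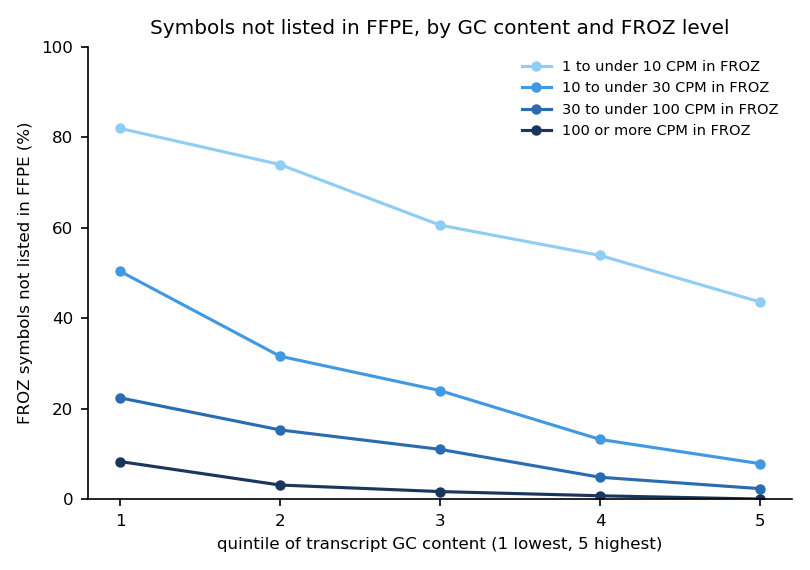
Share of symbols listed in FROZ that are not listed in FFPE (percent, vertical axis) by quintile of transcript GC content (horizontal axis), with a line for each band of mean level in the 6 vehicle FROZ libraries. In every band the share declines from the lowest to the highest quintile, from 82.0 to 43.6% at 1 to 10 CPM and from 8.31 to 0% at 100 CPM or more.

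The most abundant symbols that FFPE does not list include enzymes and trafficking proteins of the hepatocyte. Tmem19, a membrane protein, held 413 to 662 CPM (median 496) in the FROZ libraries on the deposited scale. Pon1, the paraoxonase carried by high-density lipoprotein, held 390 to 486 CPM (median 418). Lcn2 held 41.5 to 2315 CPM (median 66.0), with the highest value in animal 8. Proteins of vesicle traffic and autophagy followed, namely Rab18 (median 328 CPM), Sec24a (320 CPM) and Tax1bp1 (291 CPM). The others among the top 10 were Nckap1, Zmpste24, Pfdn1 and Il13ra1, with medians of 263, 257, 211 and 188 CPM.

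In the classes above, the symbols at 10 CPM or more in FROZ that FFPE does not list were 10 of 32 ribosome biogenesis factors, 12 of 58 spliceosome and hnRNP proteins, 34 of 82 Zfp genes, 9 of 77 genes of the ubiquitin system and 12 of 85 solute carriers. They were 0 of 46 cytosolic ribosomal proteins, 0 of 33 genes of cholesterol and fatty acid synthesis and 3 of 98 secreted plasma proteins. The corresponding share of all symbols was 15.1%.

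Only 80 symbols are listed in FFPE and not in FROZ, with a median of 8.31 CPM. Of these, 45 were at 0 in at least 1 of the 6 FFPE libraries. Sco2, an assembly factor of cytochrome c oxidase, was the exception in level, with 735 to 1137 CPM (median 965) in 6 of 6 FFPE libraries. Next came Ceacam2, with 16.4 to 49.1 CPM (median 32.0). The other 8 with the highest means were Scamp3, Gata1, Phf11c, Csad, Cplx3, Lrrc58, Hspa1b and Olfr266, with medians of 11.4 to 28.9 CPM.

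Differences between the vehicle animals themselves were compared across preservations. Over 4612 symbols with at least 10 CPM in each preservation, the deviation of an animal from the mean of its group was correlated between its FROZ and FFPE libraries. For the quintile of symbols that varied most between animals in FROZ, Pearson's r across symbols was 0.124 to 0.414 (median 0.290). With the FROZ library of another animal its median was -0.04. Subtracting the group mean ties that value to the r within an animal, so it is no separate baseline. Without animal 8 the median within an animal was 0.268. For the other quintiles the median within an animal was 0.054 to 0.088. The animal with the highest FROZ level also had the highest FFPE level for 14 of the 30 most variable symbols, and for 24% of all.

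Animal 8 kept its acute phase profile in both libraries. These genes were named after their values were seen. Saa1, a serum amyloid A protein that the inflamed liver secretes, was at 9291 CPM in the FROZ library of animal 8 against 557 to 1879 CPM in the other 5, and at 34560 CPM against 421 to 2025 CPM in FFPE. Saa2 was at 7306 against 77.8 to 391 CPM in FROZ and at 7002 against 29.1 to 222 CPM in FFPE. Mug1, a protease inhibitor of plasma, was low in this animal, at 23.6 against 4519 to 5942 CPM in FROZ and 9.92 against 265 to 653 CPM in FFPE. The methyltransferase Inmt was at 37.8 against 133 to 162 CPM and at 192 against 720 to 821 CPM. The secreted ribonuclease Rnase4 was high, at 7152 against 2245 to 3249 CPM and at 1738 against 640 to 1000 CPM. Bcl6, a transcriptional repressor, was lowest in animal 6 (32.0 CPM in FROZ and 58.2 CPM in FFPE) and highest in animal 7 (380 and 478 CPM) in both preservations.

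**Figure D5:**
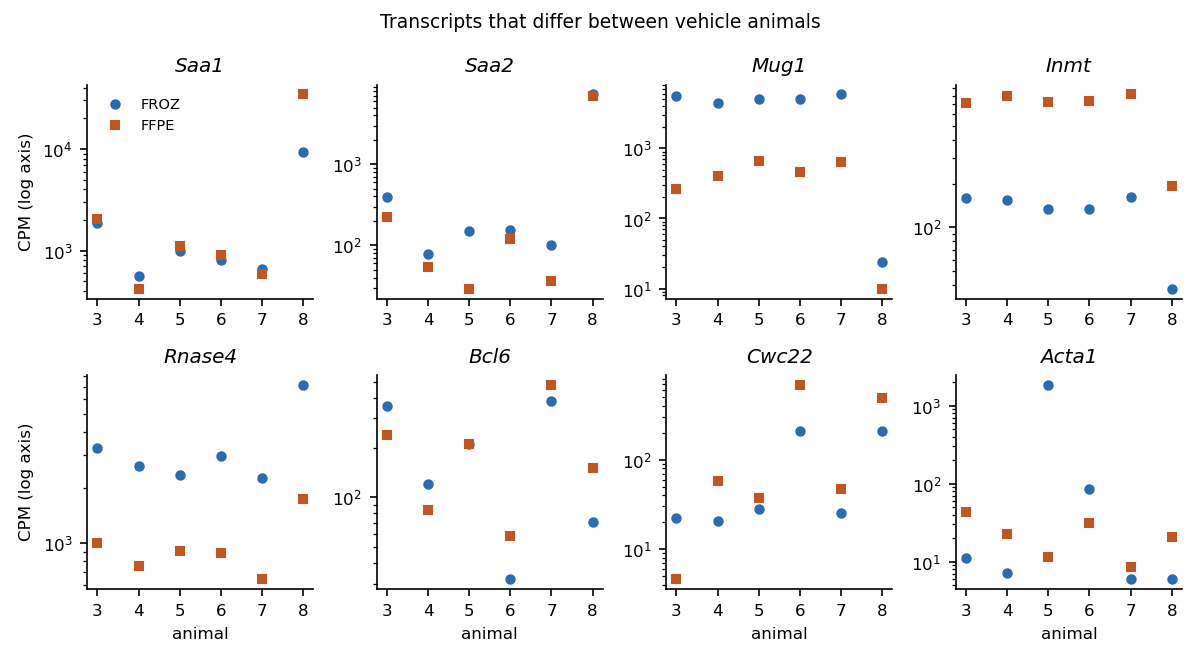
Levels (CPM, log axis) of genes that differ between vehicle animals, in the FROZ and FFPE library of each of the 6 animals. Saa1 and Saa2 are highest and Mug1 and Inmt lowest in animal 8 in both preservations, whereas Acta1 is high in the FROZ library of animal 5 and not in its FFPE library.

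Other patterns involved animals 5, 6 and 8, again named after their values were seen. The muscle actin Acta1 held 1859 CPM in the FROZ library of animal 5 against 5.90 to 85.3 CPM in the other FROZ libraries, and 11.5 CPM in the FFPE library of the same animal. The muscle myosin Myh8 held 1380 CPM there against 0.231 to 69.4 CPM, and 1.11 CPM in FFPE. In animals 6 and 8, Cwc22, a splicing factor, was at 209 and 207 CPM in FROZ against 20.9 to 28.4 CPM, and at 685 and 485 CPM in FFPE against 4.61 to 57.1 CPM. The aldo-keto reductase Akr1e1 was low in the same 2 animals, at 3.88 and 4.86 CPM in FROZ against 29.5 to 56.2 CPM, and at 0 in both FFPE libraries against 15.1 to 40.1 CPM.

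The preservation differences recurred in livers of other mice. In the 6 animals at 427 mg/kg-d of DCA, fitted in the same way, 1247 of the 1539 symbols called higher in vehicle livers were again called higher (25% of all symbols were) and 1568 of the 1805 called lower were again called lower (27.2% of all). This is 84.2% of the calls (52.3% of all symbols were called in either direction), and 99.3% had the same sign. At 313 mg/kg-d 72.7% were called again (43.8% of all symbols were called in either direction), at 198 mg/kg-d 61.5% (35.9% of all), and no vehicle call was made in the opposite direction at any dose. The rho with GC content was 0.452, 0.423 and 0.399 at 427, 313 and 198 mg/kg-d. The 10 symbols highest in vehicle livers had differences of 3.29 to 4.86 at 427 mg/kg-d, 3.91 to 5.21 at 313 mg/kg-d and 1.98 to 5.23 at 198 mg/kg-d. The 10 lowest had differences of -7.70 to -4.67, -7.55 to -4.87 and -7.65 to -2.89 at these doses. At 198 mg/kg-d Hs3st3b1 was not called (1.98, FDR 0.0922 by limma).

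The difference between the preservations itself differed between the vehicle and 427 mg/kg-d groups for 5 symbols (0.0759% of those tested, FDR under 0.05 by limma on the paired differences of 12 animals, 504 at an unadjusted p under 0.05). Serpina1b, an alpha-1-antitrypsin gene, went from 1.75 in vehicle livers to 0.31, and Serpina1e from -1.70 to -4.79. These genes belong to a family of related copies and shared 35.8 and 35.6% of their windows with another gene, so that reads may be divided between them. The peroxisomal thioesterase Acot3 went from 0.51 to -2.43, and the phosphatase Ppm1k from -4.62 to -3.01. Acot3 was close to 0 in vehicle livers, with 0.476 to 1.99 CPM in FROZ and 0 to 7.56 CPM in FFPE. It was at 0 in 2 FFPE libraries, so its vehicle difference rests on few reads. At 198 and 313 mg/kg-d no symbol passed this test by limma, with 567 and 538 at an unadjusted p under 0.05.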

How the data were processed

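Paired livers were profiled by TempO-Seq, and the authors deposited a table for each preservation with log2(CPM + 1) per gene. The authors aligned reads to mm10 with STAR in Partek Flow, assigned them to RefSeq transcripts with an expectation maximization counter, added an offset of 0.0001 to every gene, kept genes whose geometric mean in the 24 libraries of a preservation exceeded 1, and scaled each table separately. CPM recovered from these values were rescaled to 1000000 over the 6591 symbols listed once in both tables. Values close to whole reads made up 96.3 to 97.0% of low values in FROZ and 83.8 to 94.7% in FFPE, too few in FFPE for a count test. The paired difference of an animal, less its median, was fitted with limma 3.58.1 (R 4.3.3, eBayes with trend). The fit was also run on simulated, normally distributed differences with no floor at 0. Such a run does not check the fit for FFPE values near 0. The same animal number marks both libraries of a liver, and deviations from the group means correlated at 0.054 to 0.174 within an animal. Between animals the median was -0.02, a value that subtracting the group means ties to those within an animal. Sequence, GC content, length and positions came from GENCODE vM21 (GRCm38). The named genes are, for each direction, the 10 called symbols with the largest difference, outside the range of FROZ and with a mean of at least 10 CPM, up to 3 members at either end of a list, the 10 most abundant symbols and the 10 most abundant listed in 1 table only. Genes that differ between animals, Alb, Cyp2c29 and other genes outside this rule were named after their values were seen. Members and lists were chosen with earlier results of these data known. Symbols are not replicates, and no list was tested. Some genes are not reported here. p-values measure the spread between these animals.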

Additional observations from a re-analysis of the deposited data

Results flagged for a closer look

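Of 118 groups of 6 values examined, 21 held a value far from the other 5 by Dixon's test. For groups chosen beforehand about 1 in 20 is flagged by chance. Most of these genes were named for large differences or after their values were seen, so the count cannot be set against that rate. In the FFPE minus FROZ difference (log2), the FFPE library of animal 3 gave the lowest value of C8b (-6.21 against -4.50 to -4.02), Ndufa8 (-8.63 against -5.46 to -4.09), Nop10 (-7.07 against -5.19 to -4.23) and Ugt2a3 (-8.93 against -4.53 to -3.44), and the pair of this animal the lowest of Serpina1b (1.39 against 1.76 to 1.88). Animal 8 gave the lowest of Cyp2c70 (-7.53 against -6.15 to -5.33), Gbe1 (-8.19 against -4.20 to -2.84), Lamp2 (-9.78 against -6.18 to -4.73) and Psmd6 (-9.33 against -6.22 to -5.29). Animal 5 gave the lowest of Prpf39 (-7.38 against -4.16 to -3.43) and Hspb6 (0.97 against 2.97 to 3.48), and animal 4 that of Polr3gl (4.17 against 4.74 to 4.89).

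In levels, animal 8 stood apart for Saa1 in FFPE (34560 against 421 to 2025 CPM), Saa2 in FROZ (7306 against 77.8 to 391 CPM) and FFPE (7002 against 29.1 to 222 CPM), Mug1 in FROZ (23.6 against 4519 to 5942 CPM) and FFPE (9.92 against 265 to 653 CPM), Inmt in FROZ (37.8 against 133 to 162 CPM) and FFPE (192 against 720 to 821 CPM), Rnase4 in FROZ (7152 against 2245 to 3249 CPM) and Lcn2 in FROZ (2315 against 41.5 to 77.3 CPM).

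The FFPE minus FROZ difference at 427 mg/kg-d less that in vehicle livers passed an FDR of 0.05 (limma, 12 animals) for several symbols. They include Acot3 (-2.94, close to 0 CPM in vehicle livers), Ppm1k (1.61), Serpina1b (-1.43) and Serpina1e (-3.09).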

How the results depend on the processing

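The counts of 1539 higher and 1805 lower stayed within 1.5 times under every alternative to scaling, pseudocount, filter and variance prior, except that percentile ranks without a fold threshold gave 2313 higher. Of the calls, 46.0% were higher, against 58.2% without centring and 59.6% on the deposited scale. Without the pairing of animals (no replicate block) 1555 were called higher and 1791 lower. Leaving out each animal in turn gave 1452 to 1589 higher and 1699 to 1792 lower, and a median pair difference of 143 to 392 symbols at 0, where 5 pairs allow no exact p below 0.0625. The share of FROZ symbols not listed in FFPE was 34.2, 15.1 and 3.41% at a FROZ mean of at least 1, 10 and 100 CPM. Vehicle calls were repeated for 72.7% at 313 and 61.5% at 198 mg/kg-d. The median changed sign for 5 of 33 lists without centring or on the deposited scale, for 5 by ranks, for 2 at a mean of at least 10 CPM and for 1 by median-ratio scaling. Of 87 named genes called, 79 were called under every alternative, 8 were not under at least 1, and none changed direction, while Apoa1, which was not called, was at -0.015 percentile points by ranks. The rho within bands of FROZ level, rho with coding GC content and the agreement without animal 8 were added after seeing the data. Levels near 0 CPM in FFPE rest on few reads and limit how closely the lowest symbols can be ordered.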
